A study of Mus musculus with 6 samples.

Results

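The 10 integrin chains described here, Itga7, Itga8, Itga10, Itga11, Itgb5, Itgb6, Itgb7, Itgb8, Itgal and Itgae, were taken by gene symbol from a list of chains that the study did not display, and they are 10 of 26 mouse integrin chains and of the 23420 gene symbols counted. The study displayed 12 of the 26, and Itga2b, Itgad, Itgam and Itgax are in neither set. RNA was sequenced from eEnd2 cells, an endothelial line of embryonic mouse origin, that had been stably transfected with human Integrin-β1A carrying GFP in its extracellular part, either wildtype (β1-WT-GFP) or with a glutamine where the distal motif has its lysine, at the end of the cytoplasmic tail (β1-K794Q-GFP), a change made to mimic a constant acetylation of that lysine. There were 3 untreated confluent cultures of each, called WT A to WT C and K794Q A to K794Q C here, and the question was how the mutation changes the transcripts of the cell. Both chimeras were driven by a short human β-actin promoter beside a matrix attachment region, in cells sorted for GFP that still carry their own Itgb1. The cultures of a group descend from sorted cells of 1 construct, so a difference between the groups cannot be told apart from a difference between the sorted cells, and p values measure the spread between cultures, which nothing in the sources ties to separate transfections. The table has no row of its own for the human chain, and reads of the chimera may have been counted under mouse Itgb1.

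Integrins are receptors of an α and a β chain that span the membrane, bind matrix or a neighbouring cell outside and talin and kindlin adaptors inside. Which ligand a cell can bind depends on the α and β chains it makes. Among the 10 chains, Itga7 encodes a chain of a laminin receptor, Itga8 of a receptor for nephronectin and other RGD ligands, and Itga10 and Itga11 of collagen receptors, all paired with Integrin-β1. Itgb5, Itgb6 and Itgb8 encode partners of Integrin-αv, the first in a vitronectin receptor and the others in receptors that release active TGF-β, while Itgb7, Itgal and Itgae are best known from leukocytes.

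The mutated lysine lies in the distal NPXY-type motif of the β1 tail, which kindlins bind. To show what the β chains among the 10 have at that place, the last motif of an asparagine codon, any 2 codons and a tyrosine or phenylalanine codon (AAT or AAC, NNN, NNN, then TAT, TAC, TTT or TTC) was searched in frame in the last 60 codons of the principal GENCODE M21 transcript. The sequences below run 5′ to 3′ on the coding strand of GRCm38, and the capitals mark the third codon of the motif; in Itgb1 this is the codon of the lysine that K794Q replaces.
Itgb1, chr8:128732056-128732085, plus strand: actgtggtcaatccgAAGtatgagggaaaa
Itgb5, chr16:33948714-33948743, plus strand: aacaagttcaacaaaTCCtacaatggctca
Itgb6, chr2:60600521-60600550, minus strand: acttttaagaacgtgACCtacaagcacagg
Itgb7, chr15:102216205-102216234, minus strand: accactgtcaaccccCGCttccaagggaca

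Itgb1 has a lysine codon (AAG) at the third position. Itgb5 has a serine codon (TCC), Itgb6 a threonine codon (ACC) and Itgb7 an arginine codon (CGC), and no such motif was matched in the tail of Itgb8. No lysine codon stands at this place in the 3 chains among the 10 with a match.

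The totals ran from 9589826 to 15287191 counts per culture, so that 3 counts, taken as the limit for a gene with no reads, stood for 0.209 to 0.3 CPM (the unit of the normalized counts, scaled to library size with TMM factors). Such limits cover counting error only. Genes were compared with edgeR's quasi-likelihood F-test and called at a fold change of at least 2 with an unadjusted p of at most 0.05, the study's thresholds, which called 404 genes with more and 199 with fewer reads in β1-K794Q-GFP cells, 5.19% of the 11608 tested. A Benjamini-Hochberg adjusted p of at most 0.05 was reached by 21 genes, 0.181% of those tested. WT C stood apart from the other β1-WT-GFP cultures: 21.5% of tested genes were at least 2-fold from both A and B in 1 direction there. The like share was not computed for any other culture. Leaving out K794Q B also raised the number of called genes, to 942, beside 992 without WT C and 603 with all 6 cultures. All 12 endothelial markers were counted and tested, and their summed level lay between 6670 and 12500 CPM. The sum does not hold for each marker. Cldn5 was at 267, 252 and 4.74 CPM in WT A, WT B and WT C and at 17.5, 0 and 24.3 CPM in K794Q A, K794Q B and K794Q C. Vwf was at most 2.41 CPM. The summed level of 9 leukocyte markers was at most 1.28 CPM except in WT C, where it was 10.9 CPM, nearly all from Csf1r (10.7 CPM), with Ptprc at 0.279 CPM and Cd3e, Lyz2 and Cd48 at 0 in every culture. The 10 mesenchymal markers summed to 15.7 to 57.9 CPM in β1-K794Q-GFP cells and 188 to 203 CPM in β1-WT-GFP cells, but they went different ways. Prrx1, past both thresholds, was at 183, 194 and 56.5 CPM in WT A, WT B and WT C and at most 0.0987 CPM in β1-K794Q-GFP cells. Cdh2 was at 5.51, 8.70 and 111 CPM in WT A, WT B and WT C and at 20.6, 57.5 and 14.7 CPM in K794Q A, K794Q B and K794Q C, and with WT C left out it passed both thresholds as higher in β1-K794Q-GFP cells (log2 fold change 2.13). Dcn, Lum, Thy1, Postn and Twist1 were at 0 throughout. Of the epithelial markers 5 of 8, and of the muscle markers 6 of 7, were at 0 in every culture, and the sums of those lists reached at most 0.888 and 3.83 CPM.

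Of the 10 integrin chains, 4 had enough reads to be tested (Itga7, Itga8, Itga10 and Itgb5) and 6 did not pass the filter on low counts (Itga11, Itgb6, Itgb7, Itgb8, Itgal and Itgae). None of the 4 passed both thresholds by edgeR in the comparison of all 6 cultures, beside 5.19% of all tested genes. None had an unadjusted p under 0.05 by edgeR or by DESeq2, and none reached the adjusted threshold. In none of the 4 were the groups separate, whereas 16.6% of tested genes had groups that did not overlap. In each of the 4, WT C was at least 2-fold from both A and B, beside 21.5% of all tested genes.

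**Figure D1:**
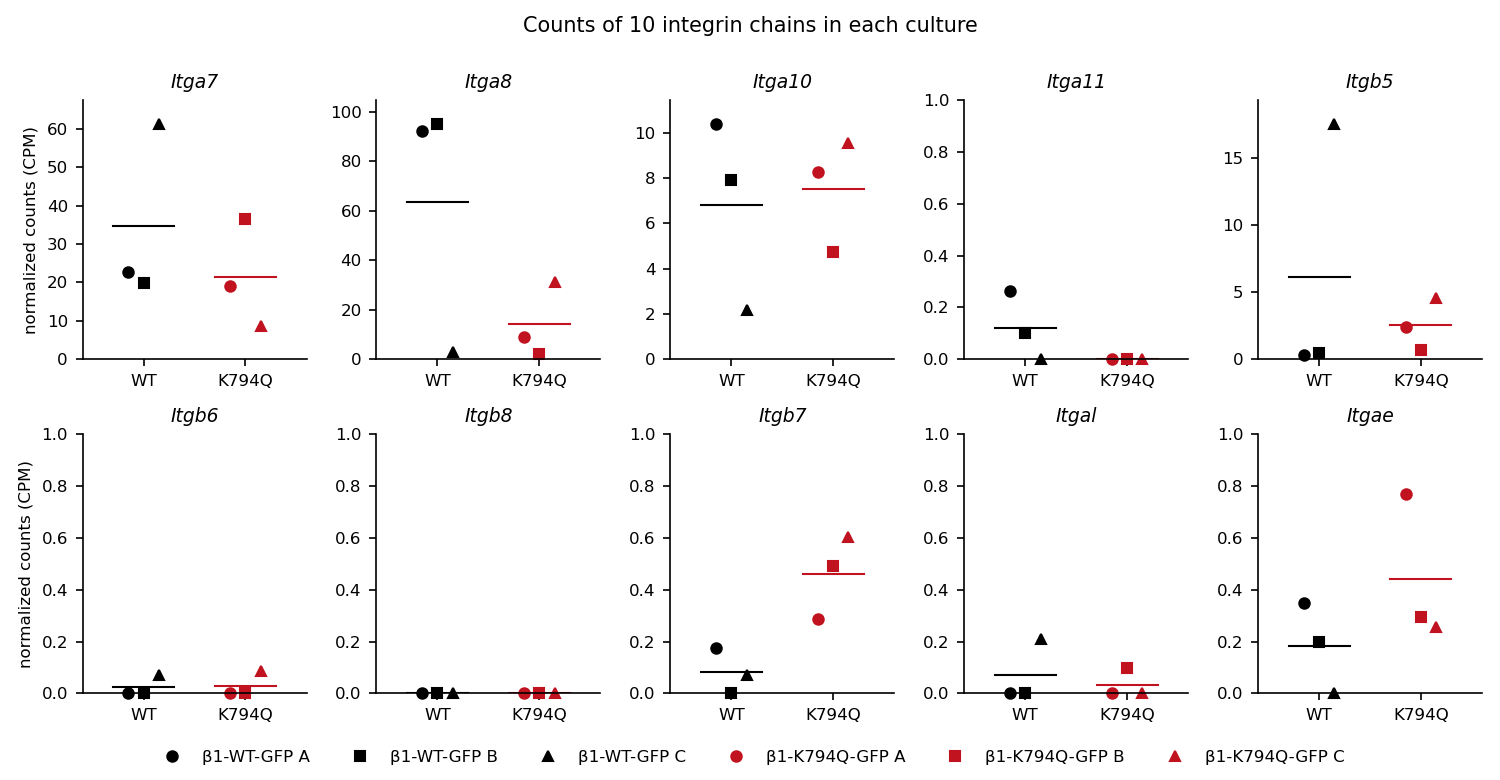
Normalized counts (CPM, linear axes from 0, with a different range in each panel) of the 10 integrin chains in the 3 β1-WT-GFP (black) and 3 β1-K794Q-GFP (red) cultures, with each group's mean as a line. Culture C of β1-WT-GFP, the black triangle, is the highest of the 6 cultures for Itga7 (61.4 CPM) and Itgb5 (17.6 CPM) and the lowest for Itga10 (2.16 CPM), and for Itga8 (3.06 CPM) it is far below A and B.

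Itga8 was the most variable of the α chains tested here. Its normalized counts were 92.1, 95.2 and 3.06 CPM in WT A, WT B and WT C and 9.15, 1.97 and 31.2 CPM in K794Q A, K794Q B and K794Q C. WT A and WT B lay above all others, while C was below 2 of the 3 β1-K794Q-GFP cultures, so that the groups overlapped. Means were 63.5 ± 52.3 CPM for WT and 14.1 ± 15.2 CPM for K794Q (SD, n = 3 each), and the log2 fold change was -2.16 (SE 1.34, edgeR p = 0.156, adjusted p = 0.693), and the exact two-sided permutation test gave p = 0.3, where 0.1 is the smallest that 3 against 3 allows. Without WT C the log2 fold change was -2.71 (SE 1.00) and the adjusted edgeR p 0.277, and Itga8 then passed the thresholds on fold change and unadjusted p. Within β1-WT-GFP cells, the mean of A and B was 30.6 times the level in C, and within β1-K794Q-GFP cells the highest culture was 15.8 times the lowest. Itga8 lies on chromosome 2 (GRCm38 chr2:12106632-12301922, minus strand); the antisense gene E030013I19Rik overlaps it and had 3 counts in all cultures together. Like Itga8, the mesenchymal marker Prrx1 and the endothelial marker Cldn5 were lower in WT C than in WT A and WT B. Both were also lower in β1-K794Q-GFP cells than in WT A and WT B. Other markers of these lists went both ways. Cdh2, Pdgfra, Pdgfrb and Acta2 were highest in WT C. Cdh5, Kdr, Flt1, Eng, Emcn and Vwf were higher in WT C than in WT A and WT B, while Tie1, Tek, Erg and Esam were lower there. The part of either cell type in the level of Itga8 was not tested. In RNA of whole cultures, fewer cells that make a transcript and less of it per cell cannot be told apart.

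Itga7, whose chain links cells to laminin and is best known from muscle, was counted at 22.7, 19.9 and 61.4 CPM in WT A, WT B and WT C and at 19.0, 36.6 and 8.69 CPM in K794Q A, K794Q B and K794Q C. The groups overlapped, with WT C highest and K794Q C lowest. Means were 34.7 ± 23.2 CPM for WT and 21.4 ± 14.1 CPM for K794Q (SD, n = 3 each), and the log2 fold change was -0.70 (SE 0.65, edgeR p = 0.321, adjusted p = 0.818, exact permutation p = 0.4). Without WT C it was 0.02 (SE 0.59, edgeR adjusted p = 0.993). Itga7 lies on chromosome 10, beside a stretch of genes that is described last.

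Itga10, a chain of a collagen receptor known from cartilage, differed least between the groups. It was counted at 10.4, 7.90 and 2.16 CPM in WT A, WT B and WT C and at 8.28, 4.74 and 9.55 CPM in K794Q A, K794Q B and K794Q C. WT C was the lowest of the 6 and WT A the highest, with all β1-K794Q-GFP cultures between them. The log2 fold change was 0.14 (SE 0.60, edgeR p = 0.817, adjusted p = 0.970, exact permutation p = 0.8), and it was -0.27 (SE 0.38, adjusted p = 0.770) without WT C. Itga10 lies at GRCm38 chr3:96645584-96664519 on the plus strand. The collagen receptor chain Itga11 (chr9:62677826-62783982, plus strand), known from fibroblasts, had 3, 1 and 0 counts in WT A, WT B and WT C and 0 in every β1-K794Q-GFP culture, at or under the limit that a count of 0 allows.

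Itgb5 encodes the β chain that joins Integrin-αv in a receptor for vitronectin, and lies at GRCm38 chr16:33829665-33949338 on the plus strand. Its levels were 0.35, 0.5 and 17.6 CPM in WT A, WT B and WT C, from 4, 5 and 253 counts, and 2.41, 0.691 and 4.56 CPM in K794Q A, K794Q B and K794Q C, from 25, 7 and 53 counts. All 3 β1-K794Q-GFP cultures were above β1-WT-GFP A and B and below C. With the 6 cultures the log2 fold change was -1.27 (SE 1.49, edgeR p = 0.425, adjusted p = 0.868, exact permutation p = 1.0). Without WT C it turned to 2.58 (SE 0.95, edgeR adjusted p = 0.277), past the thresholds on fold change and unadjusted p in the other direction. The level in WT C was 41.5 times the mean of A and B, and with it moved the leukocyte marker Csf1r (10.7 CPM against at most 0.774 CPM in the other cultures) and, of the 10 mesenchymal markers, Cdh2 (111 against at most 57.5 CPM), Pdgfra (16.4 against at most 2.31 CPM), Pdgfrb and Acta2. Prrx1 was instead lower in WT C than in WT A and WT B, and the other 5 mesenchymal markers were at 0 there. The part of either list in the level of Itgb5 was not tested.

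Leaving out WT C took 2 of the 4 tested chains past both thresholds, Itga8 lower and Itgb5 higher, where 8.38% of the 11844 genes tested without that culture passed. It turned the sign of the log2 fold change in 3 of the 4 (Itga7, Itga10 and Itgb5), against 19.1% of all genes tested. Itga8 alone of the 4 stayed negative with each of the 6 cultures left out, from -3.51 to -1.63.

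**Figure D2:**
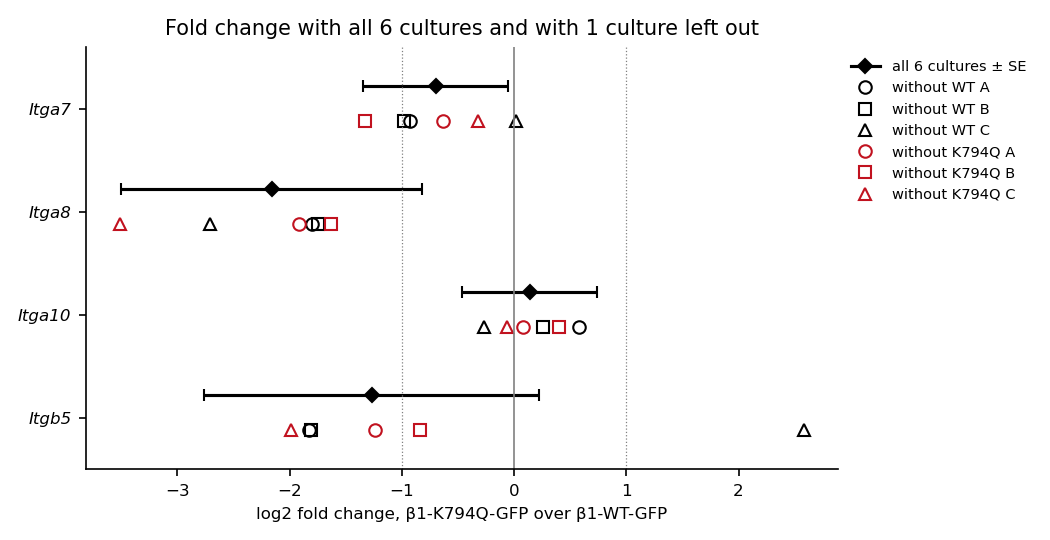
Log2 fold change of the 4 tested chains, β1-K794Q-GFP over β1-WT-GFP, with all 6 cultures (diamonds, bars are ± SE) and with each culture left out (open symbols); dotted lines mark a 2-fold change. Itgb5 moves from -1.27 to 2.58 without WT C, Itga7 from -0.70 to 0.02, and Itga8 is below 0 throughout.

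The other β partners of Integrin-αv were at or near 0. Itgb6 (chr2:60598292-60722643, minus strand), known from epithelia, had 1 count in K794Q C, 1 in WT C and 0 elsewhere, and Itgb8 (chr12:119158022-119238802, minus strand) had 0 counts in all 6 cultures, which allows up to 0.209 to 0.3 CPM. Of the epithelial markers, Epcam, Krt5, Krt14, Krt18 and Esrp1 were at 0 throughout, and Krt8, Grhl2 and Cdh1 were at most 0.592, 0.35 and 0.0696 CPM. The part of epithelial cells in the level of Itgb6 was not tested.

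Among the chains best known from leukocytes, Itgb7 (chr15:102215995-102231944, minus strand), the partner of Integrin-α4 and of the Itgae product, had 3, 5 and 7 counts in K794Q A, K794Q B and K794Q C and 2, 0 and 1 in WT A, WT B and WT C. The groups did not overlap, but the counts lay near the limit of detection. Summed over cultures and scaled to depth, the ratio of β1-K794Q-GFP over β1-WT-GFP was 5.51 (95% exact interval 1.56 to 29.7, counting error only, without the spread between cultures), and the edgeR fit with no filter on low counts gave a log2 fold change of 2.32 (SE 1.00, adjusted p = 0.563). Itgae (chr11:73090583-73147446, plus strand), which marks lymphocytes lodged in epithelia, had 8, 3 and 3 counts in β1-K794Q-GFP cultures and 4, 2 and 0 in WT A, WT B and WT C, a ratio of 2.57 with an interval of 0.929 to 8.17 that includes 1. Haspin overlaps Itgae on the opposite strand and the strand setting of the counting is not given in the sources used here, so reads of Itgae and Haspin may not be told apart. Itgal (chr7:127296260-127335138, plus strand), the α chain of the ICAM receptor of leukocytes, had 1 count in K794Q B, 3 in WT C and 0 elsewhere.

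Per kilobase of exon, the scale on which genes were compared with each other, the 10 chains lay below the main integrins of these cells by group mean. In single cultures this did not always hold. Itga8 was at 12.5 and 12.9 CPM per kb in WT A and WT B, where Itgav was at 11.2 and 13.2, and at 0.416 in WT C. In β1-WT-GFP cells Itga8 ranked 8th of 26 by mean level (8.61 CPM per kb), Itga7 9th (4.28), Itgb5 10th (1.73) and Itga10 12th (1.32). By mean transcript level in these cells, Itgb1 (245) was the highest of the β chains and Itga6 (83.6) of the α chains. In β1-K794Q-GFP cells Itga7 ranked 9th (2.65 CPM per kb), Itga8 11th (1.92), Itga10 13th (1.45) and Itgb5 17th (0.718). The spread between cultures of Itga8 and Itgb5 covered several ranks, and neighbours in this order among the 4 differed by less than that spread. The other 6 chains ranked 18th or lower in both groups.

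**Figure D3:**
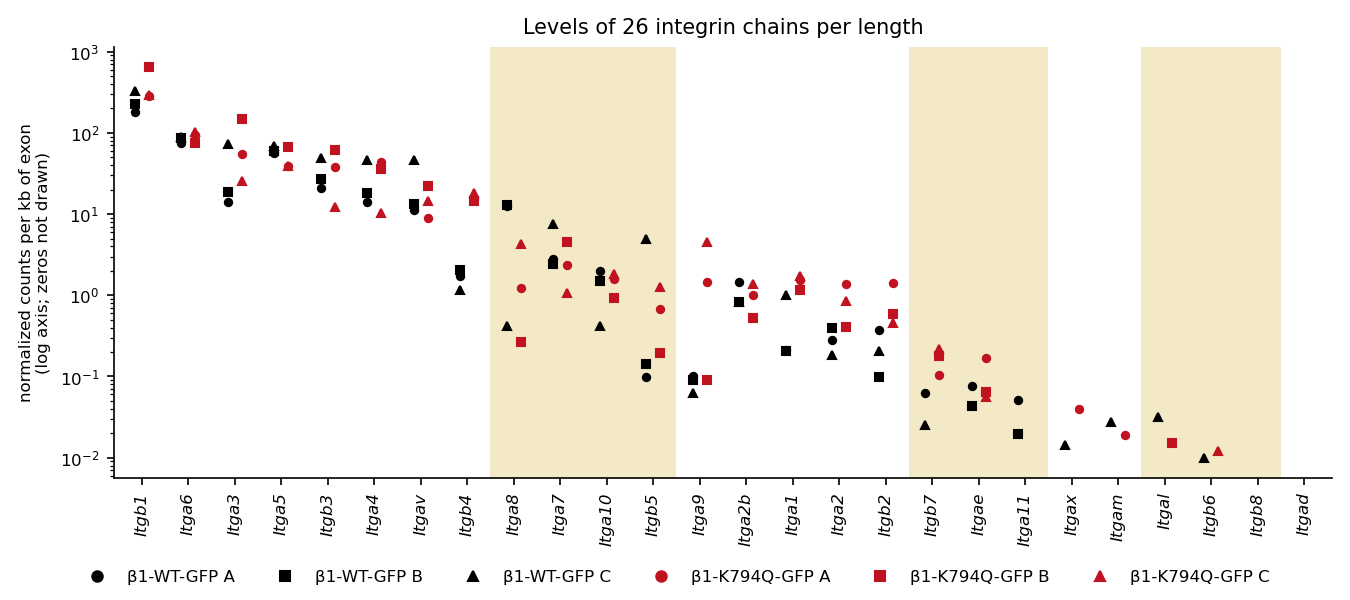
Normalized counts per kb of exon (log axis, zeros not drawn) of 26 integrin chains in each culture, ordered by mean level, with the 10 chains described here on a shaded ground. Itga8 spans 0.268 to 12.9 and Itgb5 0.0985 to 4.96 CPM per kb, while Itgb8 has no point.

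The α chains that can pair with Integrin-β1 share a common partner. Of the summed per-length level of 12 such chains, Itga7, Itga8, Itga10 and Itga11 together made up 9.13%, 7.92% and 2.51% in WT A, WT B and WT C and 2.06%, 1.6% and 3.44% in K794Q A, K794Q B and K794Q C. The share in WT C lay among those of β1-K794Q-GFP cells. Itga8 accounted for 6.58% and 6.05% in β1-WT-GFP A and B, against 0.124% in C and at most 2.04% in β1-K794Q-GFP cells. Itgb5 made up 0.463%, 0.515% and 9.29% of the summed level of the αv partners Itgb3 and Itgb5 in WT A, WT B and WT C, and 1.75%, 0.319% and 9.37% in K794Q A, K794Q B and K794Q C, so that it was the minor chain beside Itgb3 in every culture.

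Of the partner chains, Itgb2, the partner of the Itgal product, was past both thresholds, at 2.49 ± 1.6 CPM in β1-K794Q-GFP cells against 0.688 ± 0.422 CPM for WT (SD, n = 3 each; log2 fold change 1.83, SE 0.69, edgeR adjusted p = 0.430). Its counts were low, 45, 18 and 16 in K794Q A, K794Q B and K794Q C and 13, 3 and 9 in WT A, WT B and WT C. The level in WT B, 0.3 CPM, was at the limit taken for a gene with no reads. Itgb2 did not pass without WT C (log2 fold change 1.78, edgeR adjusted p = 0.371). Itgb1 had a log2 fold change of 0.74 (SE 0.45), Itga4 of 0.19 (SE 0.66) and Itgav of -0.64 (SE 0.63), and none of the 3 passed. Of all tested genes, 5.19% passed. Itgav, at 120, 142 and 503 CPM in WT A, WT B and WT C and between 96.8 and 239 CPM in β1-K794Q-GFP cells, was highest in the same culture as Itgb5.

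The ligands of these receptors were described by lists. Of all tested genes, 5.19% passed both thresholds with the 6 cultures and 8.38% without WT C, and the lists are to be read beside these shares. Of the laminin chains, ligands of the Itga7 receptor, 6 of 11 were tested and none passed both thresholds, with a median log2 fold change of -0.20 beside -0.02 over all tested genes. Of the 7 genes listed as ligands of the Itga8 or Itgb5 receptor, 6 were tested. Nov, which encodes a matricellular protein of the CCN family, passed both thresholds as lower in β1-K794Q-GFP cells, at 9.80 ± 2.25 against 50.0 ± 19.1 CPM (SD, n = 3 each; log2 fold change -2.35, SE 0.35, edgeR adjusted p = 0.0955). Vtn, which encodes vitronectin, had no count in any culture. Fn1, which encodes fibronectin, was at 174, 172 and 5830 CPM in WT A, WT B and WT C and at 292, 1740 and 528 CPM in K794Q A, K794Q B and K794Q C. Like Itgb5, it was highest in WT C and its log2 fold change turned from -1.27 (SE 1.48) to 2.31 without that culture, past both thresholds. Spp1, which encodes osteopontin, then passed as lower (-3.70), beside Nov (-1.99).

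Of the collagens, ligands of the Itga10 and Itga11 receptors, 5 of 11 were tested and none passed with or without WT C. Of the latent TGF-β genes and their carriers, ligands of the Itgb6 and Itgb8 receptors, 7 were tested. Lrrc32, which tethers latent TGF-β to the cell surface, was higher in β1-K794Q-GFP cells, at 543, 715 and 114 CPM in A, B and C against 60.4, 72.0 and 125 CPM in WT A, B and C, with K794Q C below WT C (log2 fold change 2.41, SE 0.69, edgeR adjusted p = 0.286). Tgfb3 was lower (-2.07, SE 0.85, edgeR adjusted p = 0.483) and did not pass without WT C (-0.81). The cell surface ligands of the leukocyte chains gave 4 tested genes of 7, none of which passed. Icam2 was at 156 ± 20.8 and 141 ± 51.2 CPM for K794Q and WT (SD, n = 3 each), and Cdh1 had at most 0.0696 CPM. Madcam1, the ligand of the Itgb7 receptor on gut vessels, was counted in WT A and WT B alone, at 0.35 and 0.3 CPM. These levels lay at or near the limits for a gene with no reads, 0.262 CPM in WT A and 0.3 CPM in WT B, so no difference between cultures is read from them.

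Of the adaptors that bind integrin tails, 15 of 16 in the table were tested, none passed both thresholds with or without WT C, and the median log2 fold change was -0.02, as over all tested genes. Fermt2, which encodes kindlin-2, was at 182 ± 40.4 CPM in β1-K794Q-GFP cells and 181 ± 21.7 CPM for WT (SD, n = 3 each; log2 fold change 0.01, SE 0.22), and Tln1, which encodes talin-1, had a log2 fold change of 0.09 (SE 0.26).

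Itga7 lies on chromosome 10 (GRCm38 chr10:128933818-128958282, plus strand) beside a stretch of genes that were higher in β1-K794Q-GFP cells. All 11 tested genes that start within 250 kb of it lay at lower coordinates. No tested gene started within that distance on the other side, so where the stretch ends is not shown. All 11 had a positive log2 fold change, with a median of 1.38. Beside 5.19% of all tested genes, 8 of the 11 were past both thresholds. Among these, the retinol dehydrogenase gene Rdh5 had a log2 fold change of 3.37 (SE 0.76), the diacylglycerol kinase gene Dgka 2.40 (SE 0.46) and the cell cycle kinase gene Cdk2 1.83 (SE 0.53), whereas Itga7 had -0.70. Against the mean of β1-WT-GFP cells, the median log2 level of the 25 genes around Itga7 was 1.73 in K794Q A, 0.63 in K794Q B and 1.55 in K794Q C. With an offset for this level of the region, the log2 fold change of Itga7 was -1.67 (SE 0.86, edgeR adjusted p = 0.723), not past the thresholds. Mettl7b, which overlaps Itga7 on the opposite strand, had 0 counts. Near the other tested chains, the 1 tested neighbour of Itga8, the 10 of Itga10 and the 3 of Itgb5 included none past both thresholds.

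**Figure D4:**
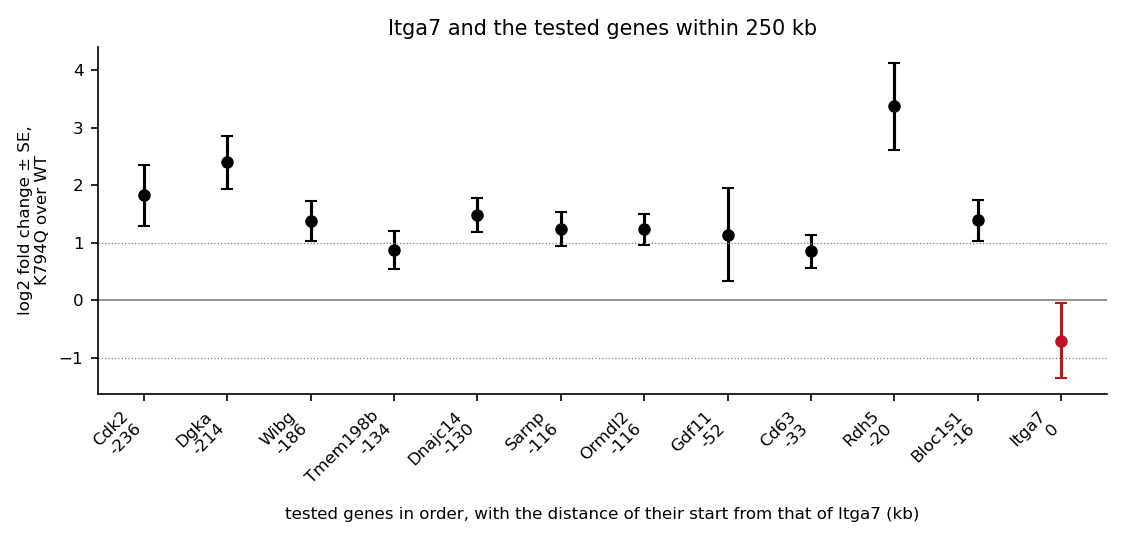
Log2 fold change ± SE, β1-K794Q-GFP over β1-WT-GFP, of Itga7 (red) and the 11 tested genes that start within 250 kb of it (black), in chromosome order and labelled with their distance in kb; dotted lines mark a 2-fold change. All 11 neighbours lie above 0, between 0.85 and 3.37, and Itga7 lies at -0.70.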

How the data were processed

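The authors sequenced ribosome-depleted total RNA of 6 cultures and deposited, for each mouse gene symbol, raw whole-number counts. The submitters' processing notes name mm10, bcl2fastq 2.20.0, STAR 2.7.4a, HTSeq 0.9.1 and edgeR 3.38.4; the annotation and strand setting are not given in the sources used here. Which sorted GFP population each culture came from is not given either. The study describes 2 sequencing runs of the samples, and this table holds 1 value per culture.

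The fit, in edgeR 4.0.16 under R 4.3.3, used filterByExpr (11608 genes kept), TMM, and the two-sided quasi-likelihood F-test over the whole table with Benjamini-Hochberg adjustment, after a test of the script on simulated counts. The standard error is the log2 fold change over the square root of F. Exact permutation tests used log2 normalized counts. Alternatives were RLE, no filter, at least 10 counts in every culture, DESeq2 1.42.0, the likelihood ratio test, the culture letter as a block, a regional offset over 25 genes, and leaving out each culture. Positions, exon lengths and sequences came from GENCODE M21 (GRCm38, the same assembly as mm10), where 21777 symbols matched directly and 1288 through a synonym. The integrin chains, lists and tests were chosen with earlier results of these data known. By rule, all 10 chains, their partners and, of each other list, genes past both thresholds were named; other list genes, the neighbours of Itga7 and the genes of like pattern were named after their values were seen. Totals were between 9589826 and 15287191 counts. The values of 1 gene of the laminin list are not reported here.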

Additional observations from a re-analysis of the deposited data

How the results depend on the processing

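The number of genes past both thresholds was 603, and 916 with no filter on low counts, 942 without K794Q B and 992 without WT C; with 1 culture left out it ran from 501 to 992. Under RLE, DESeq2, the likelihood ratio test, the filter of at least 10 counts and the regional offset it stayed within 1.5 times. The number of the 10 chains past both thresholds was 0 under every alternative except without WT C, where it was 2 (range with 1 culture left out 0 to 2). Itga8 kept its sign under all 13 alternatives. The ranges that follow are those with 1 culture left out. Itga7 turned to 0.02 without WT C (range -1.33 to 0.02), Itga10 to -0.27 without WT C and to -0.06 without K794Q C (range -0.27 to 0.58), and Itgb5 to 2.58 without WT C (range -1.99 to 2.58). Over all alternatives the lowest value of Itga7 was -1.67, with the regional offset. With the culture letter as a replicate block, 571 genes passed and none of the 10 chains did, and Itgb5 turned to 0.22 (SE 1.08). Deviations of same-letter cultures correlated at 0.109, 0.055 and 0.102 for A, B and C across genes. K794Q B and K794Q C correlated best with the β1-WT-GFP culture of their own letter, and K794Q A with WT B (0.113). All these correlations were low and do not decide whether a letter pairs cultures. The labels do not say that a letter marks a shared day or batch, so the main fit did not pair the cultures. Itgb5 could not be fitted where 10 counts were asked of every culture. With 1 culture left out, 5 cultures remained. In the main fit the filter on low counts left 6 of the 10 chains untested.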

Other observations

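The genes whose log2 levels followed each tested chain most closely over the 6 cultures were found by the root mean square difference after centring on each gene's own mean. For Itga7 they were Kctd4 (0.17), Ppp1r15a (0.24) and Rars (0.28). Ppp1r15a, a stress-induced regulator of translation, was at 109 CPM in WT C and between 9.72 and 55.8 CPM in the other cultures. For Itga8 they were Fn3k (0.52), Igf2as (0.57) and Igf2 (0.69). Igf2, which encodes a growth factor of the embryo, was at 470, 346 and 45.5 CPM in WT A, WT B and WT C and at 37.5, 7.40 and 199 CPM in K794Q A, K794Q B and K794Q C, so that, as for Itga8, K794Q C lay above WT C. Igf2 and Igf2as lie at 1 locus, and without a stated strand setting their reads may not be told apart. For Itga10 they were Naprt1 (0.07), Slc27a3 (0.10) and Amt (0.14). For Itgb5 they were Mcc (0.31), Rgs16 (0.46) and Pcyt1b (0.51). Rgs16, a regulator of G protein signalling, was at 171 CPM in WT C and at most 23.0 CPM elsewhere. These genes were picked from 11608 by their values in 6 cultures, and the likeness is a description.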
